A study of Mus musculus with 6 samples.

Results

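The beta-defensin family was examined in poly(A) RNA of whole mouse testis at postnatal day 35. Its members were taken as every gene of the authors' deposited table whose symbol is Defb followed by a number, which gave 42 of 55331 genes. Both groups, of 3 libraries each, carried floxed alleles of Ptbp1, an RNA-binding regulator of splicing, on a mixed strain background. The control group (Ptbp1fl/fl, titled WT by the submitters) had no Cre, and the Ptbp1_cKO group (Ptbp1fl/fl; Amh-Cre+/-) also carried a Cre transgene driven by the Amh promoter, which is active in Sertoli cells, the somatic nurse cells of the seminiferous tubule. No library used here came from mice with the Cre transgene and intact Ptbp1, so effects of transgene and deletion cannot be told apart, and the labels do not say whether each library is a separate animal. The table gives 1 FPKM value (fragments per kilobase of transcript, scaled to sequencing depth) per group, so levels are printed without SD and p-values are Cuffdiff's as deposited. Ptbp1 stood at 49.97 FPKM in control and 46.66 FPKM in Ptbp1_cKO, which does not check the labels in a tissue of many cell types.

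Beta-defensins are small secreted cationic peptides held together by disulfide bonds between 6 cysteines. They disrupt microbial membranes, and some also signal to immune cells through chemokine receptors such as Ccr6. In rodents most of the family is expressed in the male tract, above all in the epithelium of the epididymis, where several members coat the sperm surface, while Defb19 is known from Sertoli cells and Defb1 from epithelia such as that of the kidney. The genes lie in a few clusters and usually have a short exon for the signal peptide and another for the mature peptide.

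The coding sequences of 5 members are shown because they carry the contrast described here: Defb26 and Defb28 were the members that passed Cuffdiff's test, Defb22 had the highest Ptbp1_cKO level among the members under 1 FPKM in control, and Defb19 and Defb36 were the most abundant in both groups. Each runs 5′ to 3′ from the start codon, for Defb26 and Defb22 through the first 300 bases and otherwise to the stop codon, as in the GENCODE M21 transcripts (GRCm38, the assembly also named mm10), with in-frame cysteine codons in capitals.
Defb26: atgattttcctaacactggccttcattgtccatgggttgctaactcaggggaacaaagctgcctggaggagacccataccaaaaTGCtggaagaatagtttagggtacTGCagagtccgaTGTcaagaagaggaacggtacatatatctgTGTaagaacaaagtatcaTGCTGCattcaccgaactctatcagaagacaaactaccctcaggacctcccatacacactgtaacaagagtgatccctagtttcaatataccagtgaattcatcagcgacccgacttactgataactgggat
Defb28: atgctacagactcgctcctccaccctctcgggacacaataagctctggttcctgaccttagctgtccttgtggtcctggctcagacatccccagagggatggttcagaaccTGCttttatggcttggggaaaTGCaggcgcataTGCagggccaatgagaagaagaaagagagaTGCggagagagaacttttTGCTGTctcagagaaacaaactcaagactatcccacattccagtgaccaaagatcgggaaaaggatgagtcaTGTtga
Defb22: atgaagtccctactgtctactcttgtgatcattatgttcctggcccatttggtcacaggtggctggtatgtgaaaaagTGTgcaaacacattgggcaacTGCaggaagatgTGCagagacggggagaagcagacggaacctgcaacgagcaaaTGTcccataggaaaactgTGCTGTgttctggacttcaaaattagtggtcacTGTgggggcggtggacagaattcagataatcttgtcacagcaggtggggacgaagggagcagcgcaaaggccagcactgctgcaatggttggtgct
Defb19: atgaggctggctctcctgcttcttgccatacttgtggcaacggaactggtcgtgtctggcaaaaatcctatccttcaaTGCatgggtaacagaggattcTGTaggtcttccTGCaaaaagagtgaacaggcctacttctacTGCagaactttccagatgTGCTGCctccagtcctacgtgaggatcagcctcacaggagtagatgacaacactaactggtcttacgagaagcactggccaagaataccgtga
Defb36: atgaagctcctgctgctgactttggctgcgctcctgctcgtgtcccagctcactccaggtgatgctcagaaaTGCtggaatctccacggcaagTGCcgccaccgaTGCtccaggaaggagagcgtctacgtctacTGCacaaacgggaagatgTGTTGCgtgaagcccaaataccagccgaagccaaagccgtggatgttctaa
In Defb19 and Defb36 the 6 cysteine codons were separated by 6, 3, 9, 5 and 0 codons, and Defb28 had the same spacing, with 7 cysteine codons in all. Defb26 had 7 codons in the first interval, and Defb22 had 13 in the third. Over the family, 41 of 42 members held a run of 6 cysteine codons that ended in an adjacent pair, with median intervals of 6, 3, 9, 5 and 0 codons. The exception was Defb8, with 5 cysteine codons in all. The count of 41 took cysteine codons anywhere in the coding sequence and set no limit on spacing. Intervals far from the medians were 28, 11, 9, 6 and 0 codons in Defb50 and 2, 10, 3, 16 and 0 in Defb46. In Defb33 they were 6, 7, 6, 6 and 0.

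The family as a whole was dominated by a few transcripts with nearly equal levels in both groups, while many members of very low level stood higher in Ptbp1_cKO. Summed over members, the level was 424 FPKM in control and 438 FPKM in Ptbp1_cKO, of which Defb19 alone made up 63.2% and 63.3%. In control 20 of 42 members were above 0 FPKM and in Ptbp1_cKO 27 were; 19 were above 0 in both groups and 14 in neither. The FPKM was higher in Ptbp1_cKO for 22 and lower for 6 of the 28 members above 0 in a group, against 51.9% higher among all genes above 0 in a group. The median difference of log2(FPKM + 1) over these 28 members was 0.08, against 0.002 over all 33303 such genes (a scale on which changes of low genes look small). Cuffdiff tested 17 members, and 2 of them, Defb26 and Defb28, were higher at q under 0.05, against 0.458% of all tested genes called higher and 1.16% called in either direction. At q under 0.01 the same count of 2 stood against 0.227%, and at q under 0.1, where Defb22 joined, 3 stood against 0.835%. No member was called lower, against 0.703% of all tested genes, and of the 3 members with an unadjusted Cuffdiff p under 0.05 none was lower. That unadjusted threshold was passed by 8.98% of all tested genes.

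**Figure D1:**
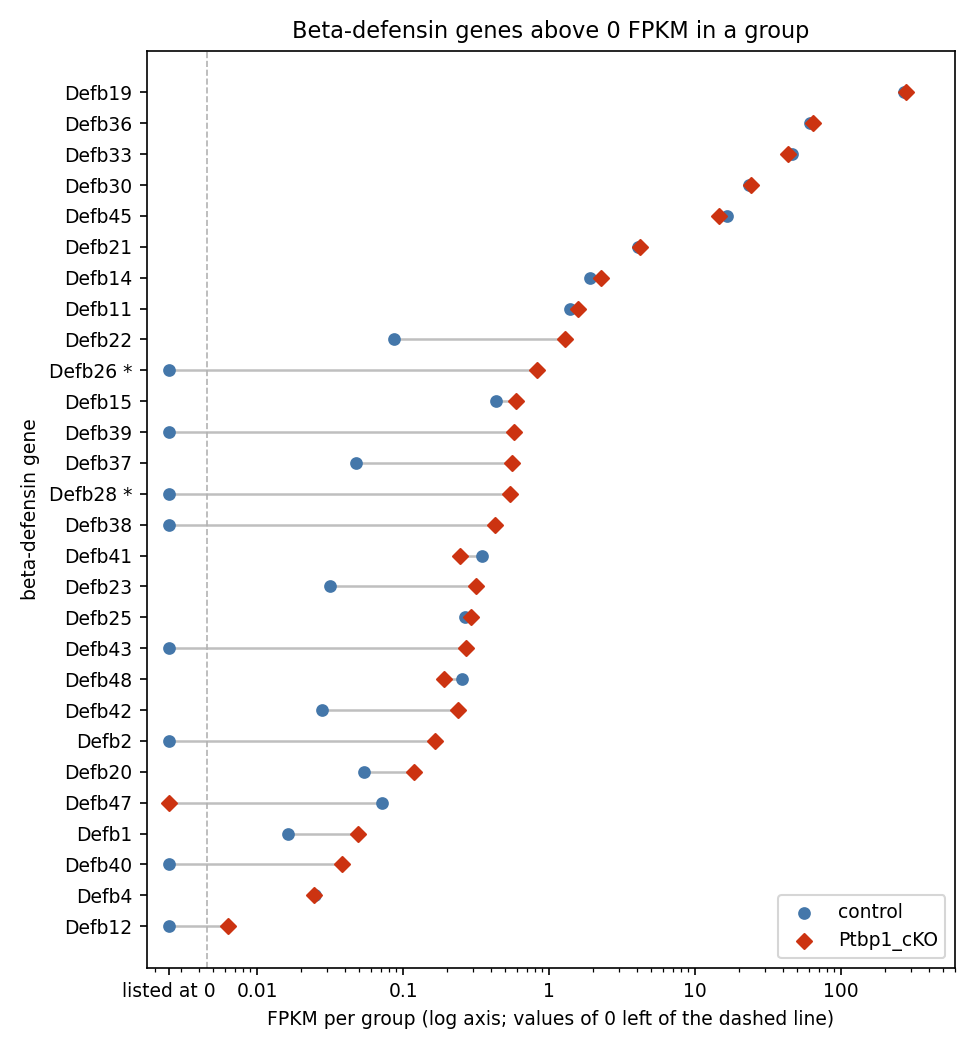
FPKM of the 28 beta-defensin genes above 0 in a group, on a log axis, with circles for control and diamonds for Ptbp1_cKO; each point is the authors' value for 3 libraries, values of 0 stand left of the dashed line, and asterisks mark q under 0.05. The 8 genes from Defb19 to Defb11 have nearly coinciding points, whereas below them most diamonds lie right of the circles.

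The members abundant in testis are described first. Defb19 (ENSMUSG00000050645.3, chromosome 2, 152576086 to 152580312, minus strand), the Sertoli cell member, stood at 267.5 FPKM in control and 277.3 FPKM in Ptbp1_cKO, a log2 fold change of 0.05 (q = 0.999, from the authors' deposited table). Its control level exceeded that of 98.5% of the genes above 0 in control. Defb36 (chromosome 2, 152604327 to 152612729, plus strand) was at 60.9 and 64.1 FPKM, and Defb33 (chromosome 8, 20892669 to 20897723, plus strand) at 46.3 and 43.2 FPKM. Defb30 of chromosome 14 stood at 23.3 and 24.0 FPKM and Defb45 at 16.5 and 14.6 FPKM. These 5 genes kept the same order in both groups.

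Below these came Defb21 at 4.07 FPKM in control and 4.22 FPKM in Ptbp1_cKO, Defb14 at 1.91 and 2.26 FPKM, and Defb11 at 1.39 and 1.58 FPKM. Defb14 is known from skin and as a ligand of Ccr6. The 8 members at 1 FPKM or more in control had log2 fold changes between -0.18 (Defb45) and 0.24 (Defb14), and the authors' deposited table gives q = 0.999 for each; none had an unadjusted Cuffdiff p under 0.05. Without values per library, no interval for these differences can be given, so small changes in these members are not excluded by the data. In whole tissue, fewer cells of a type and less RNA per cell cannot be told apart.

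Defb26 and Defb28 rose. Defb26 (ENSMUSG00000074680.1, chromosome 2, 152507798 to 152511692, minus strand, 2 exons), known from the epididymis, was listed at 0 in control and stood at 0.823 FPKM in Ptbp1_cKO (p = 5e-05, q = 0.00848, from the authors' deposited table). Defb28 (ENSMUSG00000074679.3, chromosome 2, 152518255 to 152521447, plus strand, 3 exons), its neighbour, was listed at 0 in control and at 0.539 FPKM in Ptbp1_cKO, with the same p and q in the authors' deposited table. No fold is given, since an exact 0 can be a failed estimate; 3 fragments in control would correspond to about 0.0451 FPKM for Defb26 and 0.0829 FPKM for Defb28. That p is the smallest in the table and was shared by 130 genes. Of all 13 tested genes listed at 0 in control, which could only be called higher, 4 were called, or 30.8%. Among all tested genes, 0.458% were called higher. Without Defb26 and Defb28, 2 of 11 tested genes listed at 0 in control were called. In the opposite direction, 3 of 15 tested genes listed at 0 in Ptbp1_cKO were called lower. Cuffdiff gave neither gene a test statistic, so these calls could not be repeated with a normal p computed from that statistic. Under that p no other member passed after Benjamini-Hochberg adjustment, against 0.0409% of genes higher and 0.0454% lower.

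A further group of members of low level stood higher in Ptbp1_cKO but did not pass the test. Defb22 (ENSMUSG00000027468.2, chromosome 2, 152485663 to 152490138, minus strand), which encodes a glycosylated protein of the sperm surface, was at 0.0867 FPKM in control and 1.28 FPKM in Ptbp1_cKO, 14.7 times the control value (p = 0.00145, q = 0.0876, from the authors' deposited table). It had the highest Ptbp1_cKO level of all members under 1 FPKM in control.

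Defb37, one of the epididymal genes of chromosome 8, was at 0.0472 and 0.557 FPKM (q = 0.825, from the authors' deposited table). Defb23 was at 0.0316 and 0.318 FPKM (q = 0.885, from the authors' deposited table). Defb42 was at 0.0279 and 0.239 FPKM (q = 0.638, from the authors' deposited table). With Defb22 these are the 4 members above 0 in both groups that stood at least 5 times higher in Ptbp1_cKO. Of all genes above 0 in both groups 0.824% did so, and no member was as far in the other direction. That share covers genes of every level, whereas the 4 were all under 0.1 FPKM in control. No share for genes of like level was computed. By the fragment estimate given below, Defb23 and Defb37 rested on only about 3 and 1 fragments in control. Defb42 overlaps the far more abundant Defb30 on the opposite strand. The library kit keeps strand, but whether the counting used it is not given in the sources used here, so the Defb42 value is uncertain.

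Listed at 0 in control and above 0 in Ptbp1_cKO were 8 members, against 3.26% of all genes. Besides Defb26 and Defb28 these were Defb39 (0.575 FPKM in Ptbp1_cKO), Defb38 (0.424 FPKM), Defb43 (0.268 FPKM), Defb2 (0.164 FPKM), Defb40 (0.0379 FPKM) and Defb12 (0.00630 FPKM), none of them tested by Cuffdiff. By the fragment estimate given below, Defb2 corresponded to about 2 fragments in Ptbp1_cKO, and Defb40 and Defb12 to about 1 each. Such values cannot tell presence from absence. Defb38, Defb39 and Defb40 are, like Defb37, known from the epididymis. The opposite pattern was seen in 1 member, Defb47 (0.0711 FPKM in control), against 3.39% of all genes.

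Other low members differed less or stood lower. Defb15 was at 0.430 FPKM in control and 0.595 FPKM in Ptbp1_cKO, and Defb25 at 0.264 and 0.293 FPKM. Defb20 was at 0.0535 and 0.119 FPKM, and Defb1, a constitutive epithelial defensin, at 0.0163 and 0.0493 FPKM. Lower values in Ptbp1_cKO were those of Defb41 (0.349 and 0.245 FPKM), an epididymal member, Defb48 (0.253 and 0.192 FPKM) and Defb4 (0.0250 and 0.0247 FPKM), besides Defb47. Defb41, Defb48 and Defb15 were tested and had q = 0.999 in the authors' deposited table. Of the 20 members above 0 in a group and under 1 FPKM in control, 16 were thus higher in Ptbp1_cKO, against 55.6% of all such genes. Of the 20, 8 were listed at 0 in control and could only count as higher, and 1 at 0 in Ptbp1_cKO only as lower. Among all 17878 such genes these numbers were 1804 and 1868. The summed level of the 20 was 1.65 FPKM in control and 6.74 FPKM in Ptbp1_cKO, or 0.391% and 1.54% of the family's sum. They were chosen for a low control level, so their control sum is low by that choice.

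The members listed at 0 in both groups were Defb18 of chromosome 1, Defb29 of chromosome 2, and Defb3, Defb5, Defb6, Defb7, Defb8, Defb9, Defb10, Defb13, Defb34, Defb35, Defb46 and Defb50 of chromosome 8. Defb3, known as an inducible defensin of airway epithelium, was among them. The limit that a count of 0 allows depended on length: 3 fragments corresponded to about 0.0583 FPKM in control for Defb29, with a transcript of 462 bases, but to about 1.29 FPKM for Defb5, with 207 bases. For the shortest members, a level that would be read as present in other genes was therefore not detectable.

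The fragments behind each value were estimated, because the annotated transcripts of the family are short, with a median of 381 bases. The FPKM of about 1 fragment was read from the low end of the non-zero values of genes with a single transcript of nearly the same length, which was possible for 37 members. On this scale Defb19 rested on about 9526 fragments in control and 7820 in Ptbp1_cKO, and Defb36 on about 2864 and 2720. Defb22 rested on about 8 and 95 fragments, Defb23 on about 3 and 23, and Defb37 on about 1 and 12. Defb26 and Defb28 corresponded to about 51 and 16 fragments in Ptbp1_cKO, all 3 libraries together, so on average a few fragments per library stand behind the Defb28 call. How these fragments are spread over the libraries cannot be read from 1 value per group. They could come mostly from 1 library.

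Defb39, Defb38 and Defb14 rank higher by FPKM than by fragments. Their transcripts are annotated at 252, 286 and 204 bases, and their Ptbp1_cKO values correspond to only about 3, 4 and 4 fragments. The untested members had at most about 10 fragments in a group, and the tested ones with an estimate, apart from Defb14, at least about 12 in the higher group. In simulated data the method ran somewhat high, so these figures give an order of magnitude and no fold between groups. They cover counting error only.

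**Figure D2:**
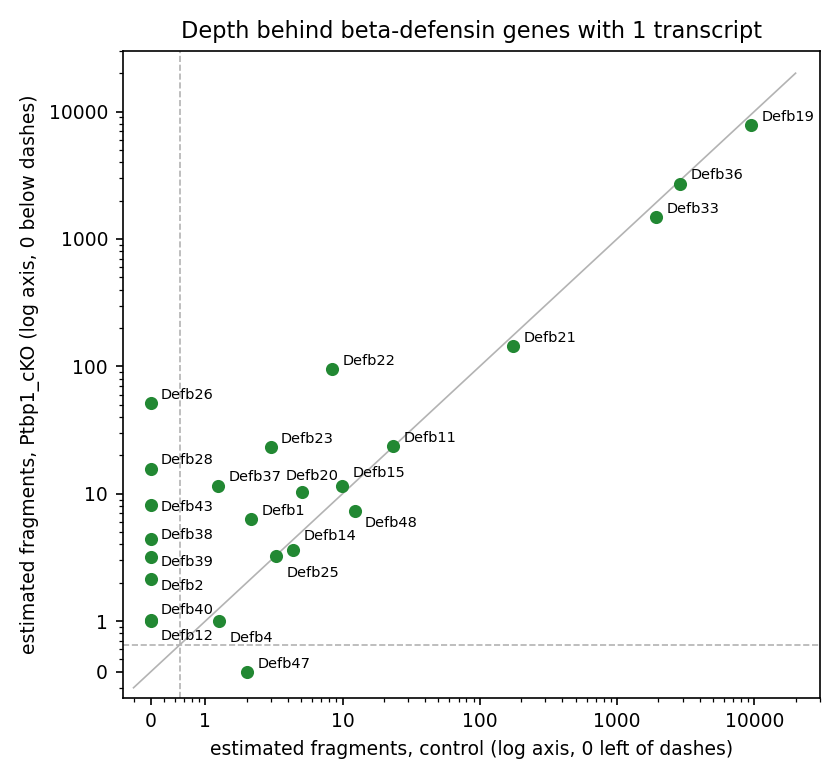
Estimated fragments behind each beta-defensin gene with a single annotated transcript, control on the horizontal and Ptbp1_cKO on the vertical log axis, each summed over 3 libraries; values of 0 lie beyond the dashed lines, and the diagonal joins equal estimates. Defb26, Defb22, Defb23 and Defb28 stand far above the diagonal with 16 to 95 fragments in Ptbp1_cKO, while Defb39 and Defb38 rest on 3 and 4.

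By position, members fell into 5 clusters on chromosomes 1, 2, 8 (2 clusters) and 14 when gaps under 1 Mb were bridged. The cluster of chromosome 2 (152459055 to 152623053, mm10) held 11 members, with 8 of the 17 tested ones, and most of the family's RNA, with 349.4 FPKM in control and 363.6 FPKM in Ptbp1_cKO. Both called members lay there. Defb26 and Defb28 are neighbours, and the order along the chromosome is Defb23, Defb20, Defb22, Defb26, Defb28, Defb29, Defb21, Defb19, Defb45, Defb36, Defb25.

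The first 6 of these, from Defb23 to Defb29, were low in control, between 0 and 0.0867 FPKM, and summed to 0.172 FPKM there and 3.08 FPKM in Ptbp1_cKO. All but Defb29, at 0 in both groups, were higher in Ptbp1_cKO. The remaining 5, from Defb21 to Defb25, began 32.6 kb further on and summed to 349.2 and 360.5 FPKM, with values in both groups close to each other. This split of the cluster was made after its values were seen and is a description.

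**Figure D3:**
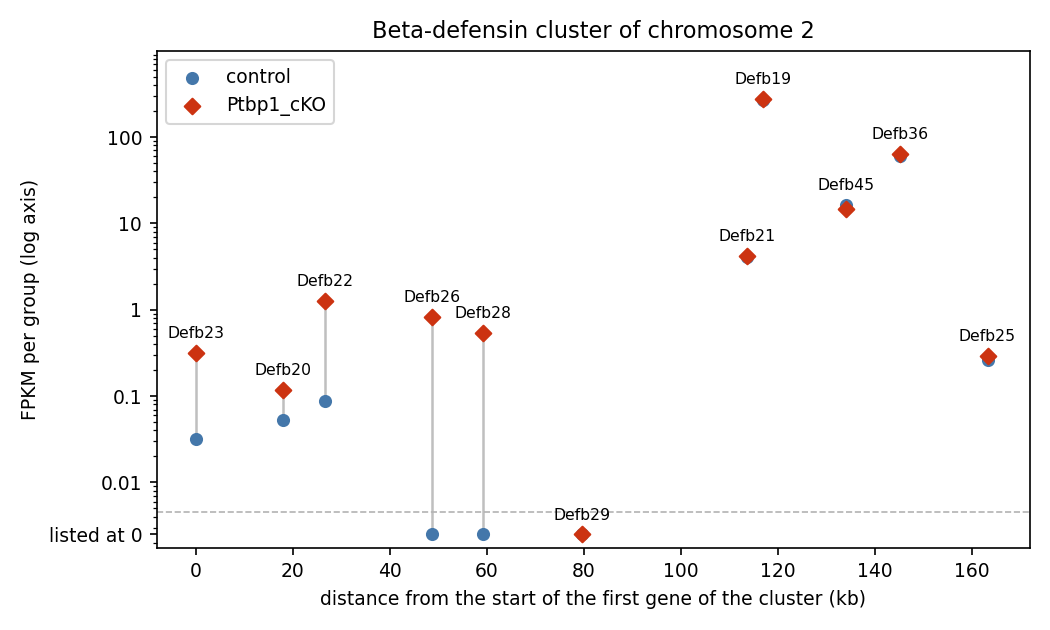
FPKM of the 11 beta-defensin genes of the chromosome 2 cluster (log axis, values of 0 below the dashed line) against distance from the start of Defb23 in kb, circles for control and diamonds for Ptbp1_cKO. The left 6 genes are near or at 0 in control and 5 of them higher in Ptbp1_cKO; in the right 5 the points of both groups nearly coincide.

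On chromosome 8, the proximal cluster (18974940 to 19497775) held 14 members, of which 3 were above 0 in control and 7 in Ptbp1_cKO. Those listed at 0 in control alone were Defb40, Defb38, Defb39 and Defb12, which with Defb37 form the start of the cluster. Its summed level was 1.98 FPKM in control, nearly all of it Defb14, and 3.88 FPKM in Ptbp1_cKO. The distal cluster (20892669 to 21948850) held 10 members and summed to 48.1 and 45.6 FPKM, most of it Defb33. The 5 members of chromosome 14 (62977524 to 63058149) summed to 23.7 and 24.7 FPKM, most of it Defb30, and the 2 of chromosome 1 (18236473 to 18265138) to 0.349 and 0.245 FPKM, all of it Defb41.

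No near-identical copy over most of a transcript was found: none of the 42 had another gene matching its longest transcript at 95% identity over 80% of its length. Genes that overlap a member were left out of this count, and shorter shared stretches do not enter it. Defb12 and Defb35, for example, had nearly the same coding bases from before their cysteine codons to the stop codon. Their coding lengths differed. Defb26, Defb22 and Defb23 had the longest coding regions of the family, with 561, 540 and 501 bases, followed by Defb21 with 303. In Defb26, Defb22 and Defb23 respectively, 128, 120 and 112 codons followed the last cysteine of that run, against 28 in Defb19 and 14 in Defb36. The long tails are visible in the Defb26 and Defb22 sequences printed above as the stretch after the adjacent pair of capitals, which there ends before the tail does. All 3 genes lie in the part of the chromosome 2 cluster that was low in control, next to Defb20 and Defb28, which have 43 and 23 such codons.

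The 250 bases before the RefSeq start (GRCm38.p6) are shown for the 2 called genes and for Defb36, to set them side by side. Defb36 is the most abundant member of the same cluster with an entry. Capitals mark CCAAT or its reverse complement ATTGG, the CCAAT box, and TATAAA or its reverse complement TTTATA, a common spelling of the TATA box. Both strands were searched, and the motifs can share end bases. Other spellings of the TATA box were not searched. The windows are chr2:152511737-152511986 on the minus strand, chr2:152518005-152518254 on the plus strand and chr2:152604077-152604326 on the plus strand.
Defb26: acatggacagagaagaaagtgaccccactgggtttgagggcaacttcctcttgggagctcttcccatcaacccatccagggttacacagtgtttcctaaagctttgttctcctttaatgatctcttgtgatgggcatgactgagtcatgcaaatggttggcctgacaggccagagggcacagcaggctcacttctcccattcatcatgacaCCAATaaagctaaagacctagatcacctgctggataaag
Defb28: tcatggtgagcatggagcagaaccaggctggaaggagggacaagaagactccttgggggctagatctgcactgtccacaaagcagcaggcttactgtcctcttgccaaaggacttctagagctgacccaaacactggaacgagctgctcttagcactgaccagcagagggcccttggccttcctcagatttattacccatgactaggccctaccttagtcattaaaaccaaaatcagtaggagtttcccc
Defb36: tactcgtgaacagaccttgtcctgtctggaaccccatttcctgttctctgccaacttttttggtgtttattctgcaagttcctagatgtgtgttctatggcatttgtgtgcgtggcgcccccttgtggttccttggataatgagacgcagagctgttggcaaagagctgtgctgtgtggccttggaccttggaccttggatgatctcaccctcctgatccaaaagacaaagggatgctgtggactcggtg
Of 30 windows for 29 members, 14 held the CCAAT box on either strand, against 33.8% of 32851 windows of all genes. TATAAA or TTTATA was in 5, against 12.4%, so the count is of these letters and not of working TATA boxes. TATAAA lay 30 bases before the start in Defb48, 35 in Defb15 and 221 in Defb23. Defb7 and Defb30 matched only TTTATA. Member windows were richer in A and T, at 53.3% against 46.8%. The CCAAT box was found 1 time in the Defb26 window, and in the windows of Defb28 and Defb36 the counts were 0 and 0. None of these 3 windows held TATAAA or TTTATA. Among less abundant members of the second part of the cluster, Defb45 held neither motif. Defb21 held the CCAAT box in 1 window and not in its other window. These matches describe letters in a window and are not evidence of binding.

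Other secreted antimicrobial proteins showed 1 call. Of 24 genes, 12 were tested and Ltf rose; none was called lower, and 5 had an unadjusted Cuffdiff p under 0.05. Ltf, the iron-binding protein lactoferrin, was listed at 0 in control and at 1.10 FPKM in Ptbp1_cKO (q = 0.00848, from the authors' deposited table). Wfdc15b, a small protease inhibitor of the WAP type, was listed at 0 and at 2.71 FPKM (q = 0.749, from the authors' deposited table). The most abundant tested gene of the list, the siderophore-binding Lcn2, stood at 111.9 and 108.6 FPKM. Spag11a and Spag11b, epididymal genes with a beta-defensin domain that lie inside the proximal cluster of chromosome 8, were listed at 0 in both groups. FPKM was higher in Ptbp1_cKO for 12 and lower for 8 of the 24. The median difference of log2(FPKM + 1) over those above 0 in a group was 0.02.

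None of the 16 tested genes among 20 receptors and transcription regulators tied to beta-defensins passed Cuffdiff's threshold, and 2 had an unadjusted p under 0.05; with the normal p from the statistic the count was also 0. Ccr6, the receptor, stood at 1.72 FPKM in control and 1.96 FPKM in Ptbp1_cKO. Rela, the NF-kappaB subunit and the most abundant tested gene here, was at 51.3 and 56.1 FPKM. The median difference of log2(FPKM + 1) was 0.05.

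Most low markers of the epididymal epithelium stood higher in Ptbp1_cKO. Of 26 markers, 12 were tested and 2 rose, none fell, and 4 had an unadjusted Cuffdiff p under 0.05. Crisp1, a secreted sperm-binding protein of the epididymis, stood at 0.0482 FPKM in control and rose to 5.90 FPKM (q = 0.00848, from the authors' deposited table). Spink10, a Kazal-type protease inhibitor, was listed at 0 in control and at 0.295 FPKM in Ptbp1_cKO (q = 0.0446, from the authors' deposited table). The most abundant tested marker, Cst8, which testis also expresses, stood at 249.6 and 247.6 FPKM. Over all 26 markers the summed level was 444.2 FPKM in control and 435.8 FPKM in Ptbp1_cKO. Among the 16 markers above 0 in a group and under 1 FPKM in control, 13 were higher and 3 lower, against 55.6% higher among all such genes. Of these 16, 5 were listed at 0 in control and could only count as higher. The sum of the 16 was 0.764 FPKM in control and 8.19 FPKM in Ptbp1_cKO, and without Crisp1 it was 0.716 and 2.29 FPKM. They were chosen for a low control level, so the control sum is low by that choice. Some of the 13 differed little, such as Ros1 (0.250 and 0.269 FPKM), Lcn9 (0.00795 and 0.00890 FPKM) and Pate4 (0.00566 and 0.00619 FPKM). Spint4 and Lcn5, listed at 0 in control, reached only 0.0103 and 0.0126 FPKM. The lower ones were Cst11 (0.287 and 0.185 FPKM), Gpx5 (0.0707 and 0.0349 FPKM) and Adam28 (0.0284 and 0.0194 FPKM). Of the 26 markers, Lcn8, Lcn6, Lcn10, Teddm1a and Ovch2 were listed at 0 in both groups. Among genes of the other lists above 0 in a group and under 1 FPKM in control, those higher were 7 of 7 for leukocytes and 3 of 3 for Sertoli cells. For other antimicrobial proteins they were 8 of 13, for receptors and regulators 6 of 11, and for efferent ducts and rete testis 5 of 10. The part of epididymal cells in the beta-defensin values was not tested.

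Of 16 markers of the efferent ducts and rete testis, 12 were tested, none passed Cuffdiff's threshold and 4 had an unadjusted p under 0.05; with the normal p from the statistic the count was also 0. FPKM was higher for 8 and lower for the other 8, the summed level was 80.2 and 75.0 FPKM, and none was at 0. Epcam, an epithelial adhesion molecule with the highest mean level of the tested markers, stood at 32.9 FPKM in control and 32.2 FPKM in Ptbp1_cKO. Foxj1, which germ cells also express, stood at 32.9 and 27.96 FPKM.

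All 18 markers of Sertoli cells, from which Defb19 is known, were tested and above 0 in both groups, with sums of 1993 FPKM in control and 2277 FPKM in Ptbp1_cKO. Clu, a secreted chaperone, stood at 853.6 FPKM and rose to 1199 FPKM (q = 0.00848, from the authors' deposited table). Cuffdiff called none of the 18 lower; FPKM was higher for 15 and lower for 3, and 5 had an unadjusted p under 0.05. Without Clu the markers summed to 1139 FPKM in control and 1079 FPKM in Ptbp1_cKO. The lysosomal protease Ctsl, the next most abundant, was at 396.6 and 322.5 FPKM (q = 0.318, from the authors' deposited table). Defb19 itself, at 1.04 times its control value, did not pass the test. The 16 leukocyte markers had 1 rise among 13 tested, C1qb of the complement system at 11.8 and 16.8 FPKM (q = 0.0202, from the authors' deposited table). FPKM was higher for 14 leukocyte markers and lower for 1, none was called lower, and 4 had an unadjusted Cuffdiff p under 0.05. Their summed level was 51.2 and 66.3 FPKM, and S100a8 of neutrophils was listed at 0 in both groups. Median differences of log2(FPKM + 1) were 0.13 for Sertoli cells and 0.08 for leukocytes, the latter equal to the beta-defensin median at this rounding. Their part in the beta-defensin values was not tested.

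**Figure D4:**
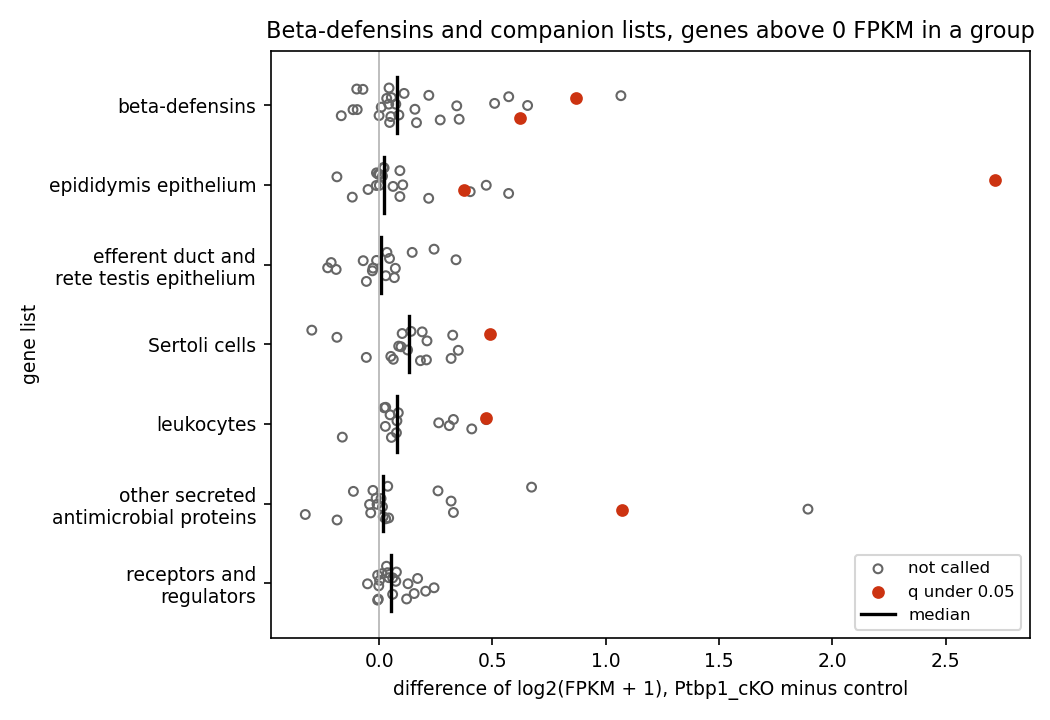
Difference of log2(FPKM + 1), Ptbp1_cKO minus control, for genes above 0 in a group in the beta-defensin family and 6 companion lists; filled points passed q under 0.05, open points did not, black bars are medians, and vertical scatter within a list has no meaning. Medians lie between 0.01 and 0.13, and the points furthest right are Crisp1, Wfdc15b, Ltf and Defb22.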

How the data were processed

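Whole-testis RNA of 3 control and 3 Ptbp1_cKO libraries, grouped by their titles, was made into stranded TruSeq libraries, per the labels' protocols. Per the submitters' processing notes, the tools included STAR 2.6.1d, Trimmomatic 0.38, bcl2fastq 2.20, Cuffdiff and Cufflinks, with mm10; their settings and the annotation were not given in the sources used here. Per the file headers, the deposited Cuffdiff table holds 1 FPKM value per group, a log2 fold change, a statistic that is a score with sign, and p-values and q-values. Since it has no column per library, no SD, left-out library or depth per library was available. The q was used as deposited, at 0.05 among 22048 tested genes. Fragment values took the 5th percentile of non-zero FPKM over genes with 1 transcript within 10 bases of a member's length. Positions, lengths and coding sequences came from GENCODE M21, in which all 42 identifiers matched, and promoters from RefSeq, GRCm38.p6. Tools were Python 3.11.15, pandas 2.3.3, scipy 1.17.1 and BLAST 2.17.0. The Benjamini-Hochberg step, the normal p and the fragment value were tested on simulated data. Members and lists were chosen with earlier results of these data known. Named genes were members that were tested or at 0.1 FPKM or more, and from each list up to 3 called genes with the largest change, plus the most abundant tested one where fewer passed; others were chosen after their values were seen. Of the genes in the 6 lists, 5 stand in more than 1 list. Alternatives were another p, other q thresholds, a filter at 0.1 FPKM, wider membership and other pseudocounts.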

Additional observations from a re-analysis of the deposited data

How the results depend on the processing

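The 2 higher beta-defensins were also called at q under 0.01 and after a filter at 0.1 FPKM, and Defb22 joined them at q under 0.1. With the normal p from the statistic the count of higher members was 0, because Defb26 and Defb28 have no statistic. Under that p the higher calls were 1 for epididymis markers and 0 each for Sertoli cells, leukocytes and other antimicrobial proteins. The called Ltf and Spink10 are also listed at 0 in control, so losing them under that p was likewise fixed in advance. A level of 0.1 FPKM or more was listed for 12 members in control and 23 in Ptbp1_cKO. The share of all genes at that level was not computed. For the shortest members it is less than 1 fragment, which for Defb39 corresponded to about 0.181 FPKM in Ptbp1_cKO. The family's median difference was 0.30 with a pseudocount of 0.1, 0.58 with 0.01, and 0.021 over all 42 members with a pseudocount of 1. Without Defb19 the sums were 156 and 161 FPKM. With a pseudocount of 0.1 the medians were 0.14 for epididymis, 0.056 for efferent ducts, 0.22 for leukocytes, 0.10 for antimicrobial proteins and 0.080 for receptors and regulators. The cause was not tested. No direction reversed under these alternatives. No paired analysis was possible because the deposited table holds no value per library, and for the same reason no library could be left out.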

Other observations

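Besides the called Defb26, Defb28, Ltf and Spink10, the 13 tested genes listed at 0 in control were Rnase12, Wfdc15b, Bsph2, Ly6f, Gm11331, Gm14158, Gm27538, Gm45456 and Gm7075, and none of these passed the test. Rnase12, a secreted member of the ribonuclease A family, stood at 0.388 FPKM in Ptbp1_cKO (q = 0.373, from the authors' deposited table), and Bsph2, a sperm-binding protein, at 0.279 FPKM (q = 0.756, from the authors' deposited table). Ly6f stood at 0.244 FPKM (q = 0.746, from the authors' deposited table). Some epididymal markers above 0 in both groups are given here, chosen after their values were seen. Adam7, a membrane protein transferred to sperm, stood at 0.00142 FPKM in control and 0.323 FPKM in Ptbp1_cKO, with q = 0.999 in the authors' deposited table. Rnase9 stood at 0.0186 and 0.514 FPKM (q = 0.289, from the authors' deposited table). Cst12, also a Sertoli cell marker, stood lower in Ptbp1_cKO, at 146.6 and 128.7 FPKM (q = 0.697, from the authors' deposited table).

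The beta-defensin clusters hold few other transcribed genes in these data. Of the non-member genes lying wholly inside them, 3 were tested and none was called by Cuffdiff at q under 0.05 or had an unadjusted p under 0.05. These were Rpl19-ps11 (4.32 and 4.202 FPKM in control and Ptbp1_cKO), Gm39139 (0.880 and 0.996 FPKM) and Gm19198 (0.115 and 0.214 FPKM). In the chromosome 2 cluster, 3 non-member genes were listed at 0 in both groups.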
